A study of Mus musculus with 18 samples.

Results

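The 10 genes described here encode the AP-1 transcription factors of the Fos family (Fos, Fosb, Fosl1 and Fosl2) and the Jun family (Jun, Junb and Jund), the related stress factor Atf3, and the immediate-early genes Egr1 and Ier3. They were chosen by symbol from a fixed list of names, and all 10 were found among the 21441 genes listed in each of the tables for macrophages and liver. Expression was measured by RNA-seq in 9 libraries of RAW264.7 cells, a mouse macrophage-like line, and 9 libraries of liver, with 3 control, 3 LPS and 3 LPS+MIC-1 libraries in each. LPS (lipopolysaccharide) is an outer membrane component of Gram-negative bacteria, and MIC-1 is moringa isothiocyanate-1, from the moringa tree. The liver came from wild-type male C57BL/6 mice that received saline (control), LPS at 10 mg/kg into the peritoneum, or the same LPS after 3 days of MIC-1 by gavage at 80 mg/kg, and it was taken at 16 h. Mice that got no MIC-1 were gavaged with vehicle. The RAW264.7 cells, 1 line labelled as wild type on a C57BL/6 background, received no LPS, LPS, or LPS with 10 µM MIC-1 according to the series design, while their sample labels repeat the mouse doses of 10 and 80 mg/kg; their time in culture is not given in the sources used here.

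AP-1 is a dimer of a Jun protein with a Fos, Jun or ATF protein that pairs through leucine zippers and binds DNA through the basic regions beside them. Several of its genes are switched on within minutes of a signal such as LPS, through MAP kinases and without new protein synthesis. Most of the AP-1 transcripts are short-lived. In macrophages AP-1 acts beside NF-κB on cytokine and protease genes, and the composition of the dimer changes what it does: Fosl1 and Fosl2 lack the strong activation domain of Fos and Fosb, and Junb is a weaker activator than Jun. Atf3 is induced by stress and restrains many inflammatory genes, Egr1 is a zinc finger activator, and Ier3 is an NF-κB target that acts on cell survival and ERK signalling.

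Most of the genes are compact. On mm9 (GENCODE annotation), Jun (chr4:94715725-94718913, minus strand), Junb (chr8:87500811-87502617, minus strand) and Jund (chr8:73221638-73224515, plus strand) each have 1 exon. Fos (chr12:86814840-86818223, plus strand), Fosb (chr7:19888070-19895394, minus strand), Fosl1 (chr19:5447703-5455945, plus strand), Fosl2 (chr5:32438845-32460204, plus strand) and Atf3 (chr1:192994175-193007219, minus strand) have 4, and Ier3 (chr17:35958629-35959868, plus strand) has 2. The median span of the 10 genes was 3581 bases, against 18141 bases for 19907 protein-coding genes with an annotated 3′ UTR. Fosl2, at 21360 bases, was above the median of all genes. The pentamer ATTTA, the core of AU-rich elements that mark short-lived transcripts, was in the 3′ UTR of 10 of the 10 genes and of 60.8% of all genes, at a median of 2.20 and 1.02 per kb. Ier3 had the highest density among the members, with 5 copies or 8.16 per kb, and the nonamer TTATTTATT was found in Fos and Fosl2 and in 6.49% of all genes.

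RefSeq promoter windows on GRCm38.p6, 250 bases before to 50 bases after the start, matched 8 of the 10 members; Fosl1 and Egr1 had no entry. The windows shown are the stretches before the start that hold a letter match, chosen because Jun and Atf3 were high together in 2 of the LPS libraries of macrophages, Ier3 was high with MIC-1, and Fos is the gene the family is named for. Capitals mark TGACGT (read as ACGTCA on the other strand) in Fos and Atf3, TATAAA in Fos, TGACATCA in Jun and GGAATTTCC in Ier3.
Fos, chr12:85473804-85473882, plus strand: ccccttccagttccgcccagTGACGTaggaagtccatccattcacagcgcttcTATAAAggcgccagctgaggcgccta
Jun, chr4:95052240-95052287, minus strand: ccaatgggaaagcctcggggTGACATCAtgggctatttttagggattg
Atf3, chr1:191183334-191183361, minus strand: tggaagctattaatagcattACGTCAgc
Ier3, chr17:35821554-35821602, plus strand: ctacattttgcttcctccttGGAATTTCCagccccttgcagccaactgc
TGACGT is the first part of the cAMP response element TGACGTCA and lies within it. Searched on both strands, TGACGT was in 2 of the 8 member windows (Fos and Atf3) and in 7.51% of all 32851 windows of this length. TGACATCA was in 1 of 8 and 3.62%, and GGAATTTCC, an NF-κB-type sequence, in 1 of 8 and 0.317%. These 3 sets of letters were added after the member windows had been read. Of the motifs listed earlier, the AP-1 site TGAGTCA (5.2% of all windows), TGACGTCA (1.79%), the EGR site GCGTGGGCG (0.612%) and the CArG box (1.63%) were in 0 of the 8 windows on either strand, and TATAAA in the direction of the gene was in 2 (Fos and Junb) and in 8.32% of all. These are letter matches only, and nothing was measured at them.

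Values are FPKM, fragments per kilobase of transcript and per unit of library size, as the authors computed them. The table columns name the treatment but no replicate, so libraries are numbered here by their order within a treatment. The value of 1 read, read from the steps between low FPKM values, put 1 FPKM at 13.9 to 24.2 reads per kb of transcript in macrophages and 5.74 to 16.8 in liver. In macrophages the FPKM values summed to between 557136 and 1137533 per library. LPS library 2 of the macrophages stood apart from its group: its log2(FPKM + 0.5) values over 9905 genes correlated at 0.990 with control library 2 and at 0.862 and 0.860 with LPS libraries 1 and 3. Calls and counts of members in macrophages are therefore given for all 9 libraries and for the 8 without this library. In liver the LPS library 2 had the lowest value of its group for 7 of the 7 members tested, and for 49.0% of all tested genes. The macrophage marker list was at a summed 12144.5 to 16518.8 FPKM in every RAW264.7 library, with 8 of its 9 genes in the table, and the hepatocyte list was at 42878.1 FPKM or more in every liver library. In the RAW264.7 cells 4 of the 5 Kupffer cell genes (Clec4f, Vsig4, Timd4 and Marco) were below 1 FPKM, and Cd5l was at up to 5.46 FPKM in control and LPS libraries and 0.799 to 1.36 with LPS+MIC-1, where it fell against LPS (Log2FC -1.66 over the 9 libraries). Genes were tested with limma on log2(FPKM + 0.5) where their mean FPKM was above 1, with an adjusted p-value below 0.01 in macrophages or 0.05 in liver and an absolute Log2FC above 1. The paper took liver RNA from 9 mice, 3 for each treatment. For the RAW264.7 cells no source says that the libraries of a group come from separate cultures. Their p-values therefore measure only the spread between these libraries, which may be technical.

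In control macrophages Junb had the highest level, 301 ± 65.3 FPKM (SD, n = 3), above Ier3 at 144 ± 50.3 and Fos at 117 ± 23.8, whose ranges overlapped. Egr1 (69.9 ± 25.1) and Atf3 (59.3 ± 8.60) overlapped each other, as did Jun (39.3 ± 10.5) and Jund (30.0 ± 5.18). Fosl1 at 10.8 ± 2.79, Fosl2 at 6.30 ± 1.00 and Fosb at 0.887 ± 0.188 FPKM followed, each below the gene before it with no overlap. FPKM is per length, so these levels can be set side by side. Control library 2 had the highest of the 3 control values in 10 of the 10 members, against 39.0% of all tested genes.

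**Figure D1:**
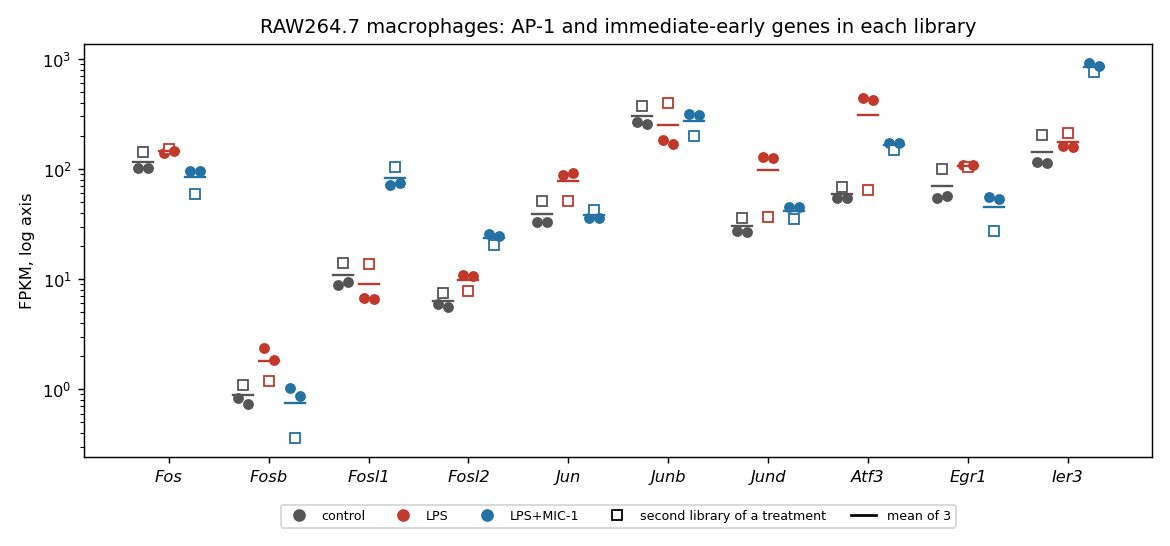
FPKM (log axis) of the 10 genes in each of the 9 RAW264.7 libraries, grouped as control, LPS and LPS+MIC-1; open squares are the second library of a treatment and bars are means of 3. Fosl1 and Ier3 are highest in all 3 LPS+MIC-1 libraries, and the open LPS square of Atf3, Jun and Jund lies with the controls.

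Between LPS and control macrophages, Atf3, Jund and Jun were the members with the largest differences. Atf3 was at 54.4, 69.3 and 54.3 FPKM in the controls and 443, 64.9 and 427 FPKM in the LPS libraries. Jund was at 27.3, 36.0 and 26.8 FPKM in the controls and 128, 36.5 and 127 with LPS. Jun was at 33.2, 51.5 and 33.3 FPKM in the controls and 89.0, 51.7 and 91.0 with LPS. In each of these genes LPS libraries 1 and 3 were high and LPS library 2 lay at or near control library 2. Over all 9 libraries 0 of the 10 members passed, as did 0% of all genes tested. The smallest limma adjusted p-value of any gene was 0.0777, while 49.8% of genes had an unadjusted p-value below 0.05. The Log2FC was then 1.96 for Atf3 (standard error, SE, 0.65), 1.48 for Jund (0.45) and 0.95 for Jun (0.26), each with a limma adjusted p of 0.0777.

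Without LPS library 2, 3 of the 10 members rose with LPS, against 34.2% of all genes called in either direction and 16.3% called higher. Atf3 rose with a Log2FC of 2.87 (SE 0.12, limma adjusted p = 1.39e-06), Jund with 2.08 (0.16, 1.22e-05) and Jun with 1.22 (0.19, 0.000581). Fosl2 was at 5.92, 7.44 and 5.55 FPKM in the controls and 10.9, 7.76 and 10.7 with LPS, and its Log2FC of 0.74 over the 8 libraries (limma adjusted p = 0.00172) was under the minimum fold. With every library rescaled to the same FPKM sum the difference of Fosl2 changed sign, to -0.19 over the 8 libraries and -0.05 over the 9. LPS and control libraries had ranges apart for 8 of 10 members over the 8 libraries (85.6% of all genes) and for 5 of 10 over the 9 (33.3%).

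Junb and Fosl1 were lower in LPS libraries 1 and 3 than in any control. Junb was at 269, 376 and 258 FPKM in the controls and 182, 402 and 169 with LPS, a Log2FC of -0.76 over the 8 libraries (limma adjusted p = 0.0185) and of -0.36 over the 9 (0.414). Fosl1 was at 8.90, 14.0 and 9.44 FPKM in the controls and 6.77, 13.8 and 6.54 with LPS, a Log2FC of -0.63 over the 8 libraries (0.0325) and of -0.30 over the 9 (0.442). Neither difference passed in either set. LPS libraries 1 and 3 have the largest FPKM sums, and rescaling every library to the same sum moved the median Log2FC of all genes by -0.90 over the 8 libraries. On that scale Junb was at -1.75 and Fosl1 at -1.55, and both passed (limma adjusted p = 0.000115 and 0.000164). Atf3 at 1.88 and Jund at 1.1 still passed, and Jun, at 0.23, did not.

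Fos itself did not pass between LPS and control, at 103, 144 and 103 FPKM in the controls and 139, 151 and 145 with LPS. Its Log2FC was 0.33 (SE 0.22, limma adjusted p = 0.232) over the 9 libraries and 0.30 over the 8, and it changed sign, to -0.35 and -0.69, with FPKM at the same sum. Egr1 was at 54.2, 98.9 and 56.7 FPKM in the controls and 108, 104 and 109 with LPS, so that every LPS library lay above every control, with a Log2FC of 0.67 (limma adjusted p = 0.118) over the 9 libraries and 0.68 (0.112) over the 8. Ier3 was at 116, 202 and 114 FPKM in the controls and 161, 210 and 160 with LPS, and these ranges overlapped, with a Log2FC of 0.34 (limma adjusted p = 0.261) over the 9 and 0.21 (0.443) over the 8. The low Fosb was at 0.838, 1.09 and 0.728 FPKM in the controls and 2.35, 1.18 and 1.83 with LPS, above control in every library, with a Log2FC of 0.70 (limma adjusted p = 0.0955) over the 9 and 0.90 (0.0172) over the 8. With FPKM at the same sum the Log2FC of Egr1 and Ier3 also changed sign, to -0.01 and -0.34 over the 9 libraries and -0.30 and -0.78 over the 8 libraries.

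Between LPS+MIC-1 and LPS macrophages, Fosl1, Ier3 and Fosl2 rose, both over all 9 libraries and over the 8. Fosl1 was at 71.2, 105 and 73.8 FPKM with LPS+MIC-1, above every LPS and every control library. Ier3 was at 923, 760 and 863 FPKM with LPS+MIC-1, again above all others, and Fosl2 was at 25.6, 20.3 and 24.6 FPKM. Over the 9 libraries the Log2FC was 3.20 for Fosl1 (SE 0.31, limma adjusted p = 0.000918), 2.26 for Ier3 (0.24, 0.00112) and 1.23 for Fosl2 (0.18, 0.00388), and over the 8 it was 3.53, 2.39 and 1.08. Over the 9 libraries these 3 of 10 members compare with 3.87% of all genes called in either direction and 2.06% called higher. The mean of Fosl1 was 9.22-fold higher than with LPS over the 9 libraries and 12.5-fold over the 8, and that of Ier3 4.79-fold and 5.29-fold.

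Within a treatment, libraries 1 and 3 were alike, with r at 0.991 in control, 0.986 with LPS and 0.988 with LPS+MIC-1. Over the 9 libraries all 3 calls were lost with only LPS and LPS+MIC-1 in the fit (limma adjusted p between 0.0106 and 0.0274). They were also lost there with libraries 1 and 3 of each treatment averaged as 1 sample (0.123 to 0.198). Over the 8 libraries all 3 calls held with only these 2 groups in the fit. The call of Fosl2 over the 9 libraries was also lost without control library 1 or 3, LPS library 1 or 3, or any 1 of the LPS+MIC-1 libraries, with limma adjusted p between 0.0103 and 0.0246 and a Log2FC between 1.17 and 1.33. The neutrophil marker list, with 9 of its 10 genes in the table, summed to 689.7 to 756 FPKM with LPS+MIC-1, 5.08 to 43.7 with LPS and 2.43 to 3.67 in control. Of its 3 tested genes 2 rose with MIC-1 against LPS over the 9 libraries, S100a8, at 651 to 718 FPKM with LPS+MIC-1, and Mmp8, at 0.198 to 2.13 FPKM with LPS and 21.4 to 35.7 with LPS+MIC-1. S100a9, Ngp, Camp, Ltf, Mpo and Elane were below 1 FPKM in every LPS+MIC-1 library. The part of this in the member values was not tested.

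Of the members that were high in LPS libraries 1 and 3, Atf3, Jund and Jun were lower with MIC-1 than in these libraries. Atf3 was at 174, 149 and 171 FPKM, Jund at 45.1, 35.1 and 45.2 and Jun at 35.7, 42.4 and 36.0 FPKM with LPS+MIC-1. The values of Jun and Jund overlapped the controls, and those of Atf3 stayed above them. Over the 8 libraries Jund fell by 1.61 on the log2 scale (SE 0.16, limma adjusted p = 6.62e-05), Atf3 by 1.40 (0.12, 3.86e-05), Jun by 1.24 (0.19, 0.000702) and Fosb by 1.08 (0.27, 0.00869). With the 3 that rose, 7 of 10 members were called, against 23.3% of all genes, 11.3% higher and 12% lower. Over the 9 libraries none of these 4 passed, with a Log2FC of -1.01 for Jund (limma adjusted p = 0.137), -0.49 for Atf3 (0.605), -0.97 for Jun (0.0337) and -0.88 for Fosb (0.0676). With FPKM at the same sum over the 8 libraries the median of all genes moved by 0.73. The values were then -0.81, -0.60, -0.44 and -0.49, and these 4 calls were lost. Jund and Atf3 were lost on the minimum fold alone (limma adjusted p = 0.00104 and 0.00105). LPS, shared by both comparisons, is high in libraries 1 and 3 for the 4 genes, so the rise and the fall are not independent. The Fosb call, at 1.03, 0.358 and 0.869 FPKM with LPS+MIC-1, was lost without any 1 library other than LPS+MIC-1 library 1 (Log2FC -0.83 to -1.23). It was also lost with no filter on low values (limma adjusted p = 0.0153) and with a pseudocount of 0.1 or 1. Fosb averaged 0.887 FPKM in control, 0.752 with LPS+MIC-1 and 1.79 with LPS, so only the LPS group took its mean past the filter. Its fall from LPS, counted among the 7, is therefore not independent of that filter.

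Egr1 and Fos were lower in every LPS+MIC-1 library than in every LPS library. Egr1 was at 55.4, 27.5 and 53.8 FPKM, a Log2FC of -1.29 over the 9 libraries (SE 0.31, limma adjusted p = 0.0254) and of -1.31 over the 8 (0.0117), and the latter passed without control library 2 (0.0073). At the same sum Egr1 was at -0.80 over the 9 and -0.51 over the 8 (limma adjusted p = 0.153 and 0.198). Fos was at 96.8, 59.6 and 96.5 FPKM, a Log2FC of -0.81 over the 9 libraries (0.22, 0.0348) and of -0.78 over the 8 (0.0189), and at the same sum over the 8 libraries it was at 0.02. Junb was at 317, 198 and 306 FPKM and overlapped LPS, with a Log2FC of 0.21 (limma adjusted p = 0.689) over the 9 libraries. Over the 8 it lay above both LPS libraries, at 0.61 (limma adjusted p = 0.0478), and did not pass. At the same sum over the 8 libraries Junb was at 1.41 and passed. The ranges of LPS+MIC-1 and LPS did not overlap for 7 of 10 members over the 9 libraries (36.1% of all genes) and for 10 of 10 over the 8 (80.3%).

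**Figure D2:**
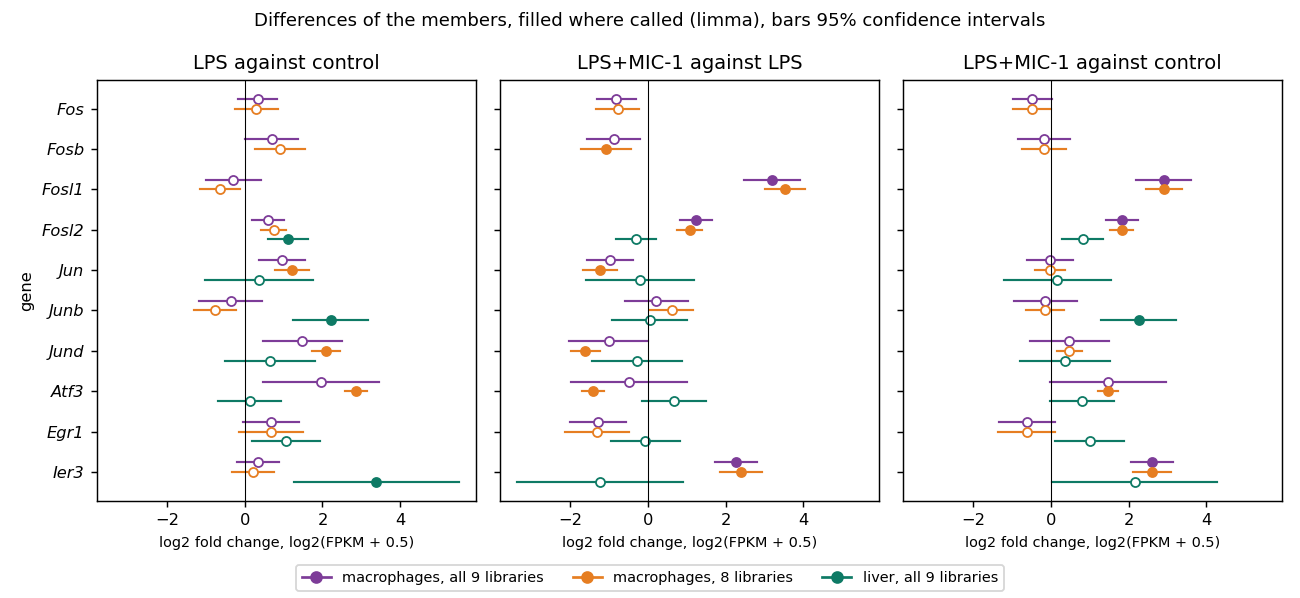
Log2FC of each gene on the log2(FPKM + 0.5) scale, with 95% confidence intervals, in the 3 comparisons (panels) for macrophages with all 9 libraries, macrophages without LPS library 2, and liver; filled points passed. Fosl1, Fosl2 and Ier3 are filled on the right of 0 in both macrophage sets wherever MIC-1 is compared. Atf3, Jun and Jund are filled only without LPS library 2. They are then right of 0 for LPS against control and left of 0 for LPS+MIC-1 against LPS. Fosb is also filled on the left in the latter, and Atf3 on the right for LPS+MIC-1 against control.

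Against control, LPS+MIC-1 raised the same 3 genes in both sets. Fosl1 had a Log2FC of 2.90 (SE 0.31, adjusted p = 0.00101 by limma, 9 libraries), Ier3 of 2.60 (0.24, 0.000554) and Fosl2 of 1.82 (0.18, 0.000726), 3 of 10 members against 5.59% of all genes called, 3.27% higher. Over the 8 libraries Atf3 rose as well, with a Log2FC of 1.47 (0.11, 2.71e-05), and 4 of 10 compare with 15.7% of all genes, 7.55% higher. This comparison holds no LPS library in its difference, and LPS library 2 enters only through the shared estimate of the spread. The 3 calls of the 9 libraries held without any 1 library and with FPKM at the same sum (1.65 to 2.72), and were lost with libraries 1 and 3 averaged (limma adjusted p between 0.0974 and 0.106). Jun at -0.02, Junb at -0.15 and Jund at 0.47 did not pass. The ranges did not overlap for 5 of 10 members, against 66.4% of all genes.

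The make-up of the families differed between the treatments. The summed FPKM of the 4 Fos genes was 118 to 167 in the control libraries, 159 to 174 with LPS and 185 to 196 with LPS+MIC-1. Fosl1 made up 7.53 to 8.39% of it in control, 3.98 to 7.91% with LPS and 36.6 to 56.6% with LPS+MIC-1, while Fos was at 86.5 to 88.4% in the control and LPS libraries and at 32.2 to 49.7% in the LPS+MIC-1 libraries. The share of Fosl1 in every LPS+MIC-1 library was thus above that in the other 6. The Jun genes summed to 318 to 464 FPKM in control, 388 to 490 with LPS and 275 to 398 with LPS+MIC-1. Junb made up 81.1 to 81.6% of this in control and 82% in LPS library 2, but 45.6 and 43.7% in LPS libraries 1 and 3, where Jund made up 32.1 and 32.8%. With LPS+MIC-1 Junb was again at 71.9 to 79.7%. Shares within a library do not depend on its scaling, and they were not tested.

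**Figure D3:**
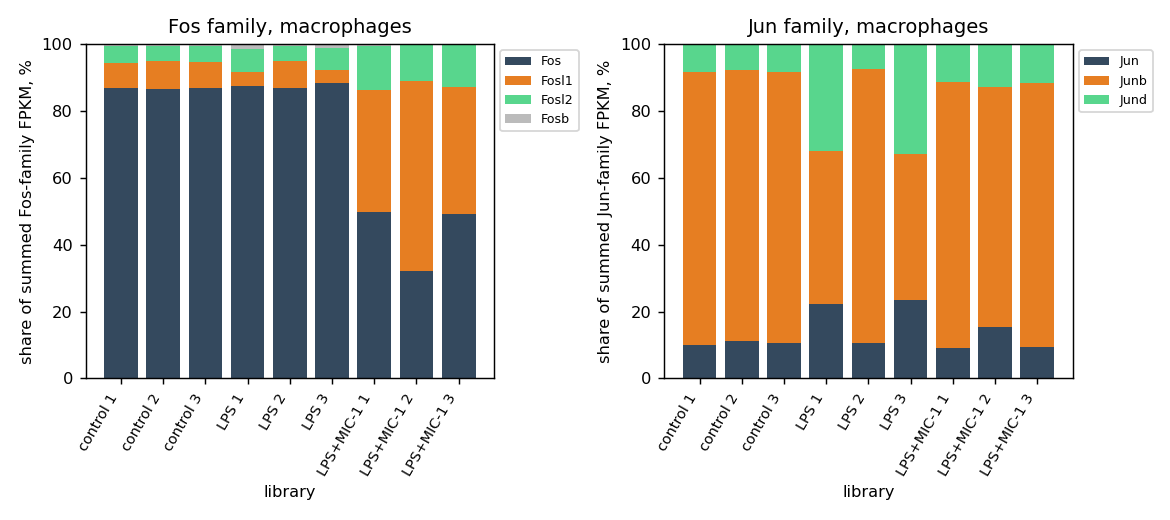
Share of the summed FPKM of the Fos family (left) and the Jun family (right) taken by each gene, in percent, in each of the 9 RAW264.7 libraries. Fosl1 takes 36.6 to 56.6% in the LPS+MIC-1 libraries, and Jund 32.1 and 32.8% in LPS libraries 1 and 3.

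Genes that act with AP-1 or before it were counted by lists written from textbook knowledge. Among AP-1 partners and related leucine zipper factors, 0 of 8 tested genes passed with LPS over the 9 libraries, as did 0% of all genes. Over the 8 libraries 3 rose and 2 fell, where 34.2% of all genes were called and 16.3% were higher. The risers were the small Maf genes Maff (Log2FC 3.35), Mafg (2.12) and Mafk (1.84), whose proteins lack an activation domain and pair with other leucine zipper factors, and Jdp2 (-1.11), a Jun-binding repressor, and Batf2 (-1.02) fell. With MIC-1 against LPS, 2 fell, among them Mafk (-1.79), and 1 rose, Jdp2 (2.26), over the 8 libraries (23.3% of all genes called), and 1 of the 8 genes fell and 0 rose over the 9 (3.87%). The median of the list with MIC-1 against LPS was 0.07 over the 9 libraries and -0.21 over the 8, and that of all genes -0.01 and 0.01.

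Among 15 tested genes of the wider immediate-early list, 6 rose and 0 fell with LPS over the 8 libraries, led by the growth-arrest gene Gadd45b (5.28), Myc (3.27) and the MAP kinase phosphatase Dusp1 (1.77), and 0 passed over the 9. Of all genes 34.2% were called over the 8, 16.3% higher, and 0% over the 9. With MIC-1 against LPS 0 rose and 4 fell over the 8 libraries (23.3% of all genes called, 12% lower). These included Gadd45b at -4.54, Ier5 at -1.62 and Dusp1 at -1.33. Over the 9 only Ier5 (-1.42, limma adjusted p = 0.0039) passed, where 3.87% of all genes were called. The median of the list was -0.46 over the 8 libraries and -0.04 over the 9. Of 17 tested MAP kinase pathway kinases, 3 rose with LPS over the 8 libraries (Mapk3, which encodes ERK1, at 2.12, Map3k8 at 1.15 and Mapk13 at 1.11), a share close to the 16.3% of all genes called higher. With MIC-1 against LPS Mapk3 (-1.53) and Map3k8 (-1.32) fell and Mapk11 (1.31) rose over the 8, where 23.3% of all genes were called. Over the 9 libraries 0 of 17 passed with LPS, with MIC-1 against LPS and with LPS+MIC-1 against control (0, 3.87 and 5.59% of all genes). Of 9 SRF and CREB factors, which act on the promoters of immediate-early genes, Crem rose with MIC-1 against LPS over the 9 libraries (1.73, limma adjusted p = 0.0084), 1 of 9 against 3.87% of all genes called. Over the 8 libraries 2 of the 9 rose with LPS, Atf1 (1.75) and Mkl2 (1.70), against 16.3% of all genes, and both fell with MIC-1 (-1.54 and -1.37), against 12% of all genes.

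Of 11 tested textbook AP-1 target genes, 8 rose and 0 fell with LPS over the 8 libraries, among them the gelatinase gene Mmp9 (4.37) and the cyclooxygenase gene Ptgs2 (3.92), against 34.2% of all genes called and 16.3% higher. With MIC-1 against LPS, 2 rose, Ptgs2 (1.33) and the urokinase receptor gene Plaur (1.22), and 3 fell, among them the protease inhibitor gene Timp1 (-2.53) and the urokinase gene Plau (-1.06), over the 8 libraries, where 23.3% of all genes were called. Over the 9 libraries 0 of 11 passed in these 2 comparisons, where 0 and 3.87% of all genes were called. No group received MIC-1 without LPS. Against control, LPS+MIC-1 raised Ptgs2 (5.25, limma adjusted p = 0.007) and Plaur (2.80, 0.0022) and lowered the cyclin gene Ccnd1 (-1.12, 0.008) over the 9 libraries, 3 of 11 against 5.59% of all genes. The list's median there was 0.76 and that of all genes -0.04.

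The genes most like a member over the 9 macrophage libraries were found by Pearson's r on log2(FPKM + 0.5), as a description of libraries that share their treatments. Fos was nearest to Cdkn2d (0.990), Zfp36 (0.980) and Gbp10 (0.965). Zfp36 encodes tristetraprolin, which binds AU-rich elements. Atf3 was nearest to 6330409N04Rik (1.000), Ctsl (0.999) and Ripk2 (0.998), Jun to Acp5 (0.996), 2210016L21Rik (0.989) and Rpl12 (0.984), and Ier3 to Tubb2a at 0.997.

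In liver the members were at lower levels, and their order was another. Jund at 19.6 ± 12.3 FPKM (SD, n = 3), Junb at 14.3 ± 7.37 and Jun at 5.97 ± 5.01 led in control, with ranges that overlapped from one to the next. Ier3 (1.86 ± 0.380), Egr1 (1.71 ± 0.310) and Fosl2 (1.48 ± 0.0991) followed, and then Atf3 (0.994 ± 0.253) and Fos (0.433 ± 0.390). Tables were normalised separately, so macrophages and liver were not tested against each other. Fos, Fosb and Fosl1 had a mean of 1 FPKM or less and were not tested, which left 7 of the 10 members. Fosb was listed at 0 in all 9 libraries. Fosl1 was at 0, 0 and 0.111 FPKM in the controls, 0.425, 0 and 0.370 under LPS, against 0.0447, 0 and 0 with LPS+MIC-1, at most about 11 reads. Fos was at 0.151, 0.269 and 0.879 FPKM in the controls, 1.01, 0.532 and 0.586 under LPS, against 1.77, 0.550 and 1.01 with LPS+MIC-1, with overlap between all groups.

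**Figure D4:**
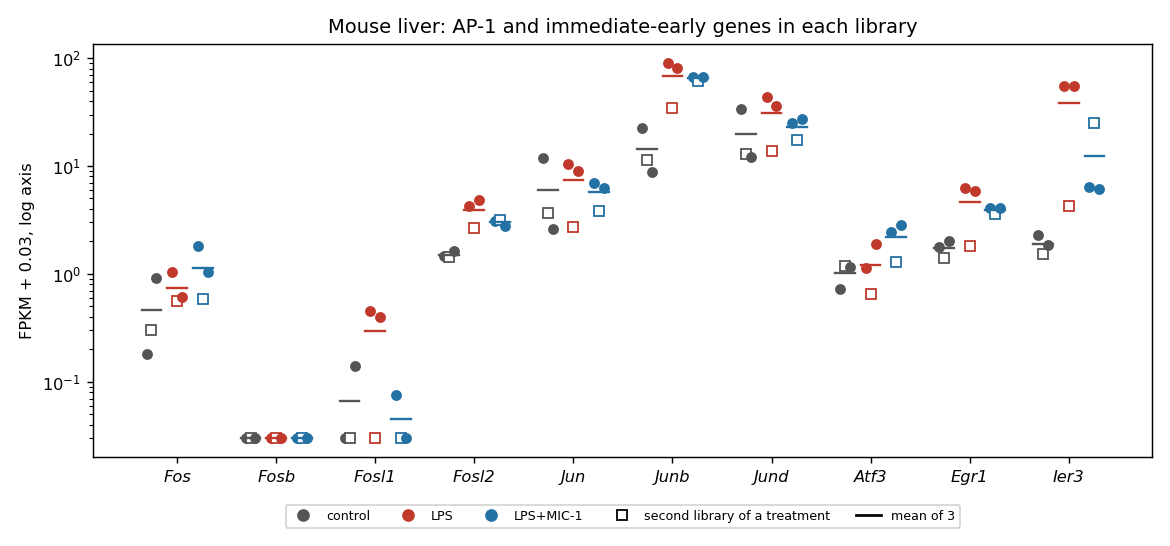
FPKM + 0.03 (log axis) of the 10 genes in each of the 9 liver libraries, grouped as control, LPS and LPS+MIC-1; open squares are the second library of a treatment and bars are means of 3. Junb and Fosl2 are above control in every LPS and LPS+MIC-1 library, and the second library of Ier3 is the lowest with LPS and the highest with LPS+MIC-1.

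Between LPS and control liver, Ier3, Junb and Fosl2 rose. Ier3 was at 2.25, 1.497 and 1.83 FPKM in the controls and 55.1, 4.26 and 54.9 with LPS, a Log2FC of 3.39 (SE 0.93, limma adjusted p = 0.0252). Junb was at 22.7, 11.3 and 8.86 FPKM in the controls and 90.5, 34.3 and 80.9 with LPS, 2.22 (0.42, 0.00739). Fosl2 was at 1.43, 1.41 and 1.59 FPKM in the controls and 4.25, 2.61 and 4.81 with LPS, 1.12 (0.23, 0.00921). Every LPS library lay above every control for these 3 of 7 members, against 45% of all genes, and the 3 called compare with 24.6% of all genes called in either direction and 13.4% called higher. The call of Fosl2 was lost without LPS library 3 (Log2FC 0.96) and with FPKM at the same sum (0.83), where the median of all genes moved by -0.32, and that of Ier3 without control library 2 or 3 or LPS library 1 or 3 (limma adjusted p between 0.0689 and 0.0961). Liver is a mixture, and more cells of a type and more RNA per cell cannot be told apart in it. The neutrophil list summed to 36.5 to 52.3 FPKM in control, 333 to 417 with LPS and 182 to 441 with LPS+MIC-1. Of its 7 tested genes, 6 rose and 1 fell between LPS and control (24.6% of all genes called). Between LPS+MIC-1 and control 4 rose and 1 fell (25.2%). The macrophage list summed to 50.7 to 77.0, 224 to 709 and 207 to 516 FPKM, with Emr1 at 0 in the 3 LPS+MIC-1 libraries. Within the macrophage list Cd14 went from 3.49 to 10.8 FPKM in control to 84.2 to 569 with LPS, while Csf1r was at 3.49 to 7.32 and 5.49 to 8.73 FPKM. Of the 5 Kupffer cell genes, Clec4f (Log2FC -2.11) and Vsig4 (-1.47) fell with LPS, Marco (3.01) rose and 2 did not pass. Their part in the member values was not tested.

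Egr1 was at 1.75, 1.38 and 2.00 FPKM in the controls and 6.24, 1.78 and 5.79 with LPS, a Log2FC of 1.06 (SE 0.39, limma adjusted p = 0.0617) that passed without LPS library 2 (1.57, 0.000884). Jun, Jund and Atf3, the genes that rose in the macrophages without LPS library 2, did not pass in liver. Jun was at 11.7, 3.65 and 2.55 FPKM in the controls and 10.4, 2.68 and 9.02 with LPS (Log2FC 0.36, limma adjusted p = 0.653), and Jund at 33.9, 12.9 and 12.1 in the controls and 43.6, 13.6 and 35.8 with LPS (0.65, 0.331). Control library 1 was the highest control for Jun, Junb and Jund. Atf3 was at 0.702, 1.15 and 1.13 FPKM in the controls and 1.11, 0.617 and 1.85 with LPS (0.13, 0.796). The 95% confidence interval of Jun, from -1.02 to 1.75, leaves room for a change past the minimum fold.

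Between LPS+MIC-1 and LPS liver, 0 of the 7 members passed, as did 0% of all genes. By limma the smallest adjusted p of any gene was 0.0546, and 3.59% of genes had an unadjusted p-value below 0.05. Ier3 had the largest difference, at 6.32, 25.0 and 6.04 FPKM with LPS+MIC-1, a Log2FC of -1.23 (SE 0.93, adjusted p = 0.997). Libraries 1 and 3 were low with MIC-1 where they were high with LPS, and library 2 did the opposite. Cd14, the LPS co-receptor gene of the macrophage list, was split in the same way, at 569, 84.2 and 552 FPKM with LPS against 56.7, 407 and 61.4 with LPS+MIC-1. Over all tested genes LPS library 2 correlated at 0.947 with LPS+MIC-1 library 2, and at 0.889 and 0.893 with LPS libraries 1 and 3. Junb at 67.4, 61.1 and 67.1 FPKM, Fosl2 at 3.05, 3.10 and 2.78 and Egr1 at 4.06, 3.54 and 4.09 lay between LPS library 2 and the other LPS libraries. The ranges overlapped for 7 of 7 members, while 9.75% of all genes did not overlap. The Log2FC of Junb was 0.04, with a 95% confidence interval from -0.93 to 1.01.

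Between LPS+MIC-1 and control liver, Junb rose with a Log2FC of 2.26 (SE 0.42, limma adjusted p = 0.00627), 1 of 7 members against 25.2% of all genes called, 13.8% higher. Fosl2 at 0.82 (limma adjusted p = 0.0243) was under the minimum fold. Ier3 at 2.16 (0.10) and Egr1 at 1.00 (0.0733) did not pass, and Ier3 passed without LPS library 2 (0.0122). Atf3 was at 2.43, 1.27 and 2.81 FPKM with LPS+MIC-1, above every control, with a Log2FC of 0.80 (limma adjusted p = 0.109). Jun at 6.94, 3.79 and 6.27 FPKM and Jund at 25.2, 17.3 and 27.1 overlapped the controls. The ranges were apart for 5 of 7 members, against 54.6% of all genes. Junb made up 33.2 to 40.6% of the summed Jun family in the control libraries, 62.6 to 67.8% with LPS and 66.8 to 74.3% with LPS+MIC-1, so its share was above that of control in all 6 treated libraries.

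In the same lists in liver, LPS raised 3 and lowered 1 of 14 tested immediate-early genes, with the antiproliferative gene Btg2 at 2.93, Ier5 at 1.86 and Rhob at 1.15, and Cyr61 at -1.62. These 4 of 14 are near the 24.6% of all genes called, 13.4% higher. Of 6 AP-1 partners and related factors, Batf (1.71) rose and Mafg (-1.63) and Maf (-1.20) fell. Mafg was thus among the genes that rose with LPS in the macrophages without LPS library 2 and among those that fell in liver, a difference that was not tested. Of 18 MAP kinase pathway kinases 3 rose (13.4% of all genes), among them Mapk13 (1.79) and Mapk14 (1.13), the p38α gene, and of 8 SRF and CREB factors 0 passed. Of 10 textbook AP-1 targets 5 rose, against 13.4% of all genes, among them Timp1 (5.27) and Plaur (2.57), and Vegfa (-1.64) and Plau (-1.44) fell. The list's median was 1.05 and that of all genes 0.15. With LPS+MIC-1 against LPS 0 genes of these 5 lists passed, as did 0% of all genes. Against control, LPS+MIC-1 raised 4 of 14 immediate-early genes, among them Btg2 (2.66), Sgk1 (2.22) and Ier5 (1.97), and lowered 1, Cyr61 (-1.22). It raised 4 of 10 AP-1 targets, with Timp1 at 3.79, and lowered 2, Vegfa (-1.79) and Plau (-1.60). Of all genes 25.2% were called in this comparison, 13.8% higher.

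The genes most like Ier3 over the 9 liver libraries were Il33 (Pearson's r 0.993), Kcne4 (0.990) and Snx18 (0.990), none of them among the 3 nearest in macrophages, Tubb2a, Ccl4 and C3ar1. Jun was nearest to Igfbp2 at 0.975 and Atf3 to Gabarapl2 at 0.966. These values describe 9 libraries that share 3 treatments, and no test was made on them.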

How the data were processed

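The authors had the libraries sequenced at BGI, pseudoaligned the reads with kallisto 0.45.0 to RefSeq transcripts of mm9, brought them to gene level with tximport and, with DESeq2 1.20.0, made the FPKM values they deposited, 1 table for each of macrophages and liver. The authors also deposited tables of their comparisons (fold changes and p-values), which were not used. All table columns were matched to a treatment by name, and 0 were left unmatched.

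The tables were kept apart. A gene entered the test where its FPKM averaged above 1 across the 9 libraries of its table, and log2(FPKM + 0.5) was fitted by limma 3.58.1 in R 4.3.3 (all groups in 1 fit, eBayes with trend, Benjamini-Hochberg adjustment over all tested genes). The scale understates changes of low genes. Thresholds were an absolute Log2FC above 1 with an adjusted p below 0.01 (macrophages) or 0.05 (liver). The paper used 8 macrophage libraries, leaving out 1 LPS library without naming it, so both sets were fitted. The pipeline was tested on simulated data. Members and lists were chosen with earlier results of these data known. All 10 members are named, and from each list up to 3 genes per direction with the largest Log2FC past the threshold; a few list genes that this rule names are not reported here. Gbp10 and other near-copies may share reads. Values and figures were prepared in Python 3.11.15 (pandas 2.3.3, numpy 2.4.6, matplotlib 3.10.9). Alternatives covered the pseudocount (0.1 and 1), the filter, scaling, thresholds, groups in the fit and each library left out. Depth was estimated from the steps between low FPKM values.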

Additional observations from a re-analysis of the deposited data

Results flagged for a closer look

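The LPS libraries of Junb lay on opposite sides of control in the 2 tables, below it in macrophages without LPS library 2, where the difference did not pass, and above it in liver, where it passed. In macrophages without LPS library 2 its mean FPKM with LPS was 0.583 times that of control, and both LPS libraries lay below every control. In liver it was 4.80 times that of control, and every LPS library lay above every control. The ranges of LPS and control were apart for 85.6% of all genes in macrophages without LPS library 2 and for 45% in liver. In macrophage LPS library 2 Junb was at 402 FPKM, above every control, and over all 9 libraries the ranges overlapped. The tables were normalised separately, and the difference between macrophages and liver was not tested.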

How the results depend on the processing

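Of 174 counts of members called under an alternative, 158 stayed within 1.5 times the reported count and 16 did not. In macrophages with all 9 libraries, the count between LPS and control (0) became 4 without the second library of every treatment, an alternative added after seeing the data, and after the second libraries had been seen to differ from the others. That between LPS+MIC-1 and LPS (3) became 0 with only the 2 groups in the fit, 0 with libraries 1 and 3 averaged and 6 without the second libraries, and that against control (3) became 0 with libraries 1 and 3 averaged. Over the 8 libraries the count between LPS+MIC-1 and LPS (7) became 4 with FPKM at the same sum and 4 with libraries 1 and 3 averaged. In liver the count between LPS+MIC-1 and LPS (0) became 1 without the second libraries. The gene was Ier3 (Log2FC -3.05, limma adjusted p = 0.0225), and 218 of 10147 tested genes were then called. The count against control (1) became 2 with only the 2 groups in the fit, 2 with no minimum fold change, 2 at an unadjusted p below 0.05 and 3 without the second libraries.

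With 1 library left out at a time, the counts ranged in macrophages from 0 to 3 (LPS against control), 2 to 7 (LPS+MIC-1 against LPS) and 3 to 4 (LPS+MIC-1 against control). In liver they ranged from 1 to 4, 0 to 0 and 1 to 2. Over the 8 libraries they were 3 to 3, 6 to 7 and 4 to 4. Over the 9 libraries of either table, the highest count in each comparison whose counts differed came without LPS library 2, and in liver the count of 1 between LPS and control came without LPS library 3. Of 1545 Log2FC values of members under the alternatives, 0 calls changed direction, 44 were lost and 35 gained.

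With FPKM at the same sum, the share of calls that were higher over the 8 macrophage libraries went from 47.5 to 9.81% with LPS and from 48.5 to 93.0% with MIC-1 against LPS, and in liver from 54.4 to 30.1% with LPS and from 54.5 to 17.2% with LPS+MIC-1 against control. No paired analysis was possible because the table columns carry no replicate number. Fos, Fosb and Fosl1, at a mean of 1 FPKM or less in liver, were not tested there.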
